A study of Homo sapiens with 6 samples.

Results

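The mRNA levels of 10 genes of the spindle assembly checkpoint and of the regulators of the anaphase-promoting complex (APC/C) were followed from untreated ovarian cancer cells through polyploid giant cancer cells (PGCCs) to the daughter cells that grew out of them. The genes were taken by symbol from the table of 59008 genes, and all 10 were found in it: BUB1, BUB1B, BUB3, MAD1L1, MAD2L1, TTK, CDC20, FZR1, FBXO5 and BIRC5. In Hey PGCCs 7 of them were lower than in parental cells by at least 2-fold, and in SKOV3 PGCCs 3 were, namely BUB1, TTK and FBXO5, the last of which was not past 2-fold once a trend with transcript GC content was removed. CDC20, which encodes the mitotic activator of the APC/C, went from 127 to 31.7 TPM (transcript share scaled to a common library total) in Hey but from 329 to 476 TPM in SKOV3, where its log2 change turned from 0.53 to -0.055 without that trend. BUB3, MAD1L1 and FZR1 passed the threshold against parental cells in neither line.

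Hey and SKOV3 are established human ovarian cancer cell lines, and each contributed 1 library of untreated parental cells, 1 of PGCCs and 1 of daughter cells. PGCCs were made with 500 nM paclitaxel for 16 h and recovery in drug-free medium, 3 days by the treatment labels of both lines, although the title of the SKOV3 library says day 7. The daughter libraries carry 30 days of recovery after the same exposure and are titled as clone 1 of each line, so each stands for 1 clone. With 1 library per condition no value has a replicate error, and the second cell line was the only repeat of any comparison. Differences are given within a line as differences of log2(TPM + 1), and a gene was called lower or higher at a difference of at least 1 (2-fold).

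The spindle checkpoint holds a dividing cell in metaphase until every kinetochore, the protein complex that joins a chromosome to the spindle, is attached to microtubules. The kinases MPS1 (TTK) and BUB1 start the signal at free kinetochores, MAD1 (MAD1L1) turns MAD2 (MAD2L1) into its active form there, and MAD2, BUBR1 (BUB1B) and BUB3 then sequester CDC20 in the mitotic checkpoint complex. Once the checkpoint is satisfied, CDC20 activates the APC/C, a ubiquitin ligase that marks securin and cyclin B for destruction, and CDH1 (FZR1) takes over as activator from late mitosis into G1, until EMI1 (FBXO5) inhibits the APC/C again. Survivin (BIRC5) belongs to the chromosomal passenger complex with Aurora B and also to the IAP protein family. Paclitaxel stabilizes microtubules and keeps this checkpoint active, and cells that leave mitosis without dividing become polyploid.

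Promoter stretches are shown for genes of both kinds, those that were lower in Hey PGCCs (CDC20, BUB1B, BUB1) and FZR1, which was not, because many genes of the late cell cycle share the cell cycle genes homology region (CHR) and CCAAT boxes close to the start. RefSeq entries (GRCh38.p14), covering 250 bases before to 50 after a transcription start, were found for 7 of the 10 genes. BUB3, TTK and BIRC5 had none. Capitals mark TTTGAA or TTCGAA (CHR) and CCAAT, each searched on both strands. The stretches lie at chr1:43358871-43358980 on the plus strand (CDC20), chr15:40161034-40161063 on the plus strand (BUB1B), chr2:110678064-110678153 on the minus strand (BUB1) and chr19:3506061-3506170 on the plus strand (FZR1).
CDC20: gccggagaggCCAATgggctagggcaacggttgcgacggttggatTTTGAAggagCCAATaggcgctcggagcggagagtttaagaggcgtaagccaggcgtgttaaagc
BUB1B: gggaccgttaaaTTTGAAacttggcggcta
BUB1: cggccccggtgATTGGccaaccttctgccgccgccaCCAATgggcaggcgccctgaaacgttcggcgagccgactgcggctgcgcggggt
FZR1: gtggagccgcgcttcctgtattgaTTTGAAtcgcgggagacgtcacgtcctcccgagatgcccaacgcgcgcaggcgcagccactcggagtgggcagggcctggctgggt
Among all 35116 windows of the same length, 15.2% held TTTGAA, 1.45% TTCGAA and 34.6% CCAAT. CDC20 had TTTGAA at position -65 between CCAAT boxes at -100 and -55, besides a copy on the other strand at -178. BUB1B had TTTGAA at -23. BUB1 had CCAAT boxes on opposite strands at -79 and -54, and its TTCGAA began at position 2 after the start. MAD2L1 carried TTTGAA at position 25 after the start, and FBXO5 had it on the other strand at -40 of the second of its 2 starts, with 4 CCAAT boxes upstream of it, 2 of which overlap. FZR1 also held TTTGAA, at -226 of the first of its 2 starts, while MAD1L1 held none of these letters. TTTGAA thus stood in genes that were lower in Hey PGCCs and in FZR1, which was not, and these matches are a description of letters only.

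The columns summed to between 911825 and 920497 TPM, and read depth per gene is unknown because the table carries no counts. The share of mitochondrial transcripts ranged from 2.64% in Hey parental cells to 14.8% in SKOV3 daughter cells and was 12.3% in Hey PGCCs. The line labels were checked on ERBB2. This gene, amplified in SKOV3, was between 1127 and 1778 TPM there and between 8.20 and 14.1 TPM in Hey. The 7 epithelial markers summed to between 1036 and 3198 TPM. In Hey, however, KRT19 was at most 3.60 TPM, EPCAM at most 1.43 TPM and MUC1 at most 0.136 TPM. The E-cadherin gene CDH1 (not the protein CDH1 of FZR1) was at most 0.0283 TPM there. The 4 ovarian markers summed to between 59.2 TPM in Hey daughter cells and 185 TPM in SKOV3 PGCCs. The 5 leukocyte markers summed to at most 1.21 TPM and the 7 fibroblast markers to at most 27.3 TPM, from 0.209 TPM in Hey parental cells to 3.28 TPM in Hey PGCCs. The endothelial gene CDH5 was between 33.2 and 48.5 TPM in Hey, with PECAM1 and VWF at most 0.272 TPM. The part of these genes in the results was not tested.

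**Figure D1:**
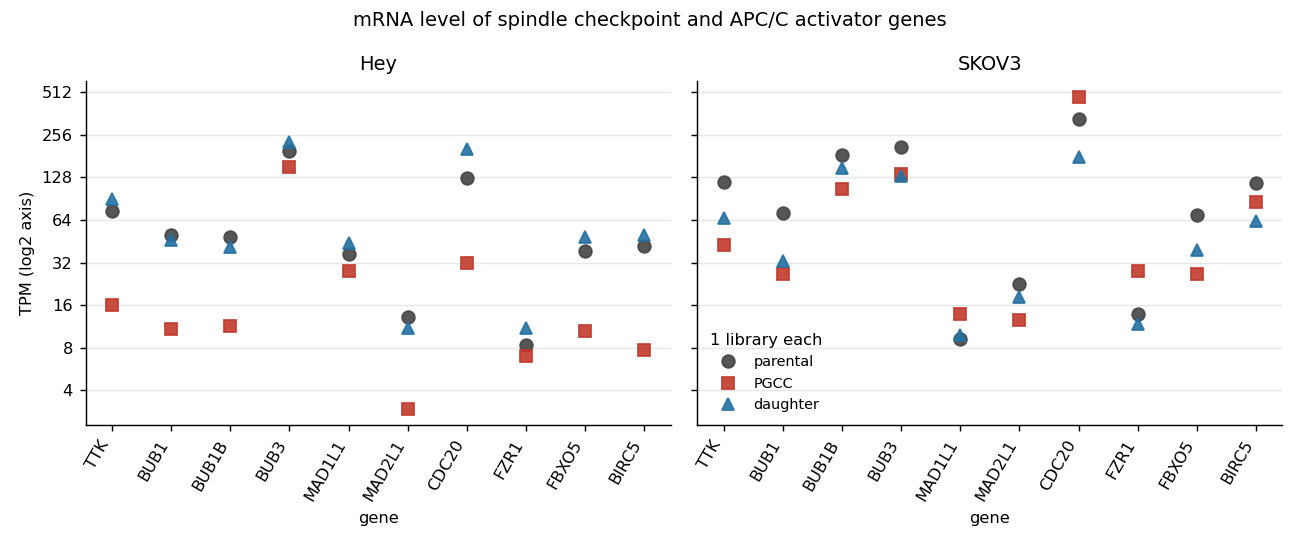
TPM of the 10 genes (log2 axis) in the parental, PGCC and daughter library of Hey (left) and SKOV3 (right), with 1 point per library. In Hey the PGCC point is the lowest of the 3 for every gene, while in SKOV3 it is the highest for MAD1L1, CDC20 and FZR1.

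The kinases that start the checkpoint signal were lower in the PGCCs of both lines. TTK (chromosome 6 from 80003887 to 80042527, GRCh38) stood at 73.9 (parental), 16.1 (PGCC) and 89.4 TPM (daughter) in the Hey libraries, and at 119, 42.3 and 65.6 TPM in those of SKOV3. Its PGCC level was 4.6-fold below the parental level in Hey and 2.80-fold below it in SKOV3, the largest decrease of the 10 genes in SKOV3. BUB1 (chromosome 2 from 110637528 to 110678063) was likewise lowest in the PGCCs, with 49.9, 10.9 and 46.4 TPM in Hey, listed in the same order of states, and 71.4, 26.6 and 33.0 TPM in SKOV3. Parental BUB1 was 4.57-fold above the PGCC level in Hey and 2.68-fold above it in SKOV3. In the SKOV3 daughter clone BUB1 was still 2.17-fold below its parental level, whereas in the Hey clone it was 1.07-fold below. The SKOV3 PGCC and daughter levels of BUB1 differed by -0.30 on the log2(TPM + 1) scale. Once the trend with transcript GC content and length was removed that difference was 0.077, so BUB1 was then not lower in PGCCs than in daughter cells there.

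Among the genes of the mitotic checkpoint complex, BUB1B and MAD2L1 had nearly the same profile and BUB3 did not share it. BUB1B (chromosome 15 from 40161023 to 40221123) had 48.4, 11.3 and 41.5 TPM in the 3 Hey libraries, and 185, 106 and 149 TPM in SKOV3. MAD2L1 (chromosome 4 from 120055623 to 120066858) was the least abundant of the 10 genes in the PGCCs of both lines, at 13.2, 2.94 and 11.1 TPM in Hey and 22.4, 12.6 and 18.4 TPM in SKOV3. Parental cells exceeded PGCCs 4.27-fold (BUB1B) and 4.5-fold (MAD2L1) in Hey, and 1.75-fold and 1.78-fold in SKOV3, where neither was called. Over the 4 changes against parental cells (PGCCs and daughter cells in both lines), these 2 genes were the closest of all pairs, with a root mean square distance of 0.078 on the log2(TPM + 1) scale. BUB3 (chromosome 10 from 123154402 to 123170467), the WD-repeat partner of BUB1 and BUBR1, was at 196, 151 and 227 TPM in Hey and at 209, 136 and 130 TPM in SKOV3. It was the most abundant of the 10 in every Hey library, and its PGCC level was 1.30-fold below the parental level in Hey and 1.54-fold below it in SKOV3. MAD1L1 (chromosome 7 from 1815793 to 2233243) had 36.6, 28.1 and 44.3 TPM in Hey and 9.19, 13.9 and 9.92 TPM in SKOV3. MAD1L1 was the only one of the 10 that was lower in SKOV3 than in Hey among the parental libraries, with a difference SKOV3 minus Hey of -1.88 on the log2(TPM + 1) scale.

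The APC/C activators differed in Hey PGCCs, where CDC20 was called lower than in parental cells (-1.96) and FZR1 was not (-0.22). In SKOV3 PGCCs both changes were above 0 (0.53 and 0.96), and they were -0.055 and -0.084 without the GC and length trend. CDC20 (chromosome 1 from 43358981 to 43363203) was measured at 127, 31.7 and 202 TPM in Hey (parental, PGCC, daughter) and at 329, 476 and 178 TPM in SKOV3. In Hey the PGCC library was the lowest and the daughter library the highest, and in SKOV3 this order was turned round. FZR1 (chromosome 19 from 3506311 to 3538334) was at 8.35, 7.01 and 10.96 TPM in Hey and 13.9, 27.9 and 11.8 TPM in SKOV3. The SKOV3 PGCC level of FZR1 was 2.01-fold the parental level, a log2(TPM + 1) difference of 0.96 that lay just under the threshold and just over it (1.00) with a pseudocount of 0.1. FBXO5 (chromosome 6 from 152970519 to 152983579), the inhibitor, was at 38.5, 10.6 and 48.3 TPM in Hey and 69.3, 26.7 and 39.1 TPM in SKOV3. FBXO5 was thus lower in the PGCCs of both lines, by 3.64-fold in Hey and 2.59-fold in SKOV3, where the call was lost without the GC and length trend (-0.61 against -1.34). A row for the pseudogene CDC20P1 was at 3.96, 0.452 and 4.32 TPM in Hey and at most 0.0696 TPM in SKOV3, and how the quantification shared reads between it and CDC20 is unknown, while rows for BUB1P1 and BUB3P1 were listed at 0 in all 6 libraries.

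BIRC5 (chromosome 17 from 78214186 to 78225636), which encodes survivin, had the largest decrease of the 10 genes in Hey PGCCs. It was at 41.7, 7.73 and 50.03 TPM in Hey and at 117, 86.0 and 63.2 TPM in SKOV3. The parental level was 5.39-fold the PGCC level in Hey and 1.37-fold in SKOV3. Its 3 partners in the chromosomal passenger complex were also lower in Hey PGCCs and not called in SKOV3 PGCCs. AURKB, the Aurora B kinase, differed from parental cells by -2.87 in Hey PGCCs and by 0.063 in SKOV3 PGCCs on the log2(TPM + 1) scale. The values of INCENP, the scaffold of the complex, were -2.63 and -0.22, and those of CDCA8, which encodes borealin, were -2.20 and -0.26. With the trend of transcript GC content and length removed, the SKOV3 values were -0.35 (AURKB), -0.94 (INCENP) and -0.43 (CDCA8), each lower but not past the threshold. The difference between the lines was not tested.

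The background was taken from the 14988 genes whose mean over the libraries reached 1 TPM, a limit that all 10 genes passed. Of those 5.22% were lower and 7.67% higher in Hey PGCCs than in parental cells by at least 2-fold, against 7 and 0 of the 10. The 7 differences lay between -1.77 (FBXO5) and -2.29 (BIRC5), and the median of the 10 was -1.91, against 0 over all genes. In SKOV3 4.96% of all genes were lower and 9.94% higher, against 3 and 0 of the 10, and the median of the 10 was -0.70 against 0.017. Both lines together called 0.834% of all genes lower, and 3 of the 10 were among them. Once the trend with GC content and transcript length described next was removed, 2 of the 10 were (0.349% of all genes), and the SKOV3 median of the 10 was -0.45, with 2.66% of all genes lower and 2.49% higher in SKOV3. The count in SKOV3 rests on the threshold, since at 1.5-fold it was 7 (6 lower and 1 higher, where 16.3% of all genes were lower and 22.9% higher) and at 3-fold it was 0 (1.01% lower and 2.01% higher). In Hey 7 were lower at 1.5-fold (14.4% of all genes) and 7 at 3-fold (1.71%).

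**Figure D2:**
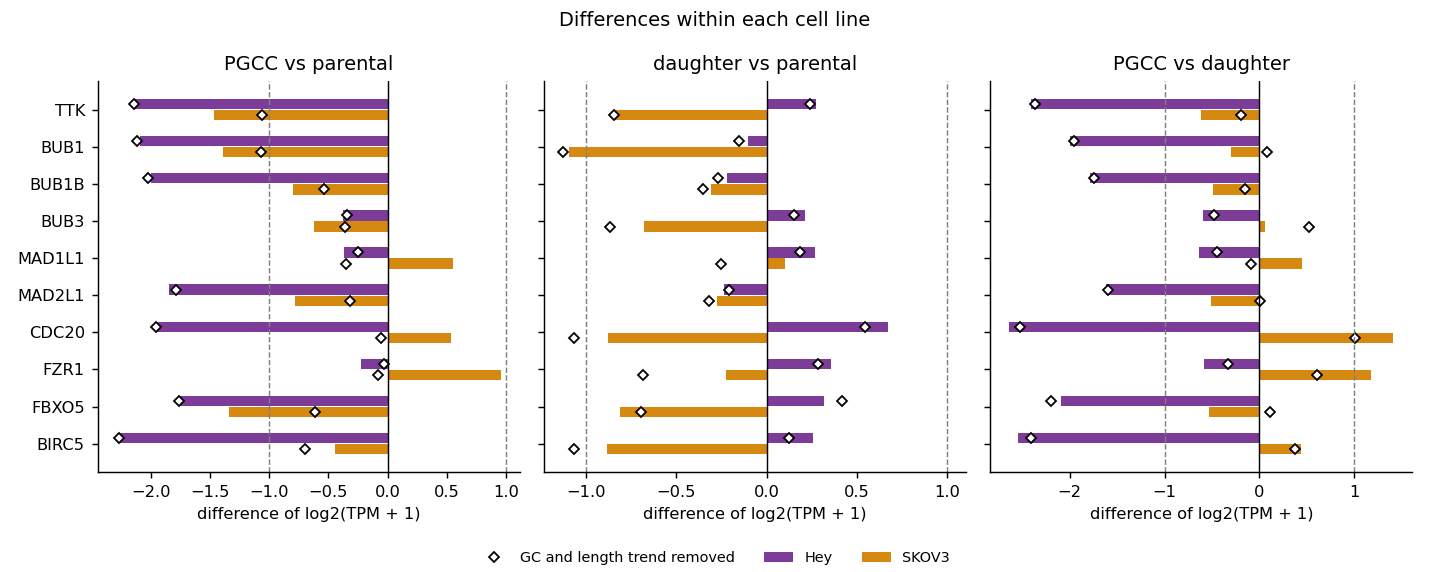
Differences of log2(TPM + 1) for the 10 genes in 3 comparisons, with bars for Hey and SKOV3, dashed lines at the 2-fold threshold and open diamonds for the values once the dependence on GC content and length was taken out. In PGCCs against parental cells the Hey bars of 7 genes reach beyond -1, and the SKOV3 diamonds of CDC20, FZR1 and MAD1L1 lie below 0 although their bars lie above it.

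The changes in SKOV3 PGCCs were ordered by the GC content of the transcripts. Over 13468 genes with a known GC content the Spearman correlation between GC content and the change was 0.704 in SKOV3 and -0.044 in Hey, a correlation across genes within the same libraries. Over the 10 genes it was 0.794 in SKOV3 and 0.261 in Hey. The 3 genes with a positive change in SKOV3 were the 3 with the highest GC content, FZR1 (63.8%), MAD1L1 (62.6%) and CDC20 (57.9%), and FBXO5 had the lowest (34.2%). Removal of the trend with GC content and transcript length took the SKOV3 change of FZR1 from 0.96 to -0.084, that of CDC20 from 0.53 to -0.055 and that of MAD1L1 from 0.55 to -0.36. BUB1 (-1.07) and TTK (-1.07) were still past the threshold, while FBXO5 went from -1.34 to -0.61. BIRC5 was the only one of the 10 further from 0 without the trend, at -0.70 against -0.45. In Hey the same step moved FZR1 the most, from -0.22 to -0.033, and 7 genes were lower by at least 2-fold with or without it. With 1 library per condition, a trend of the cells and a trend of the library cannot be told apart.

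**Figure D3:**
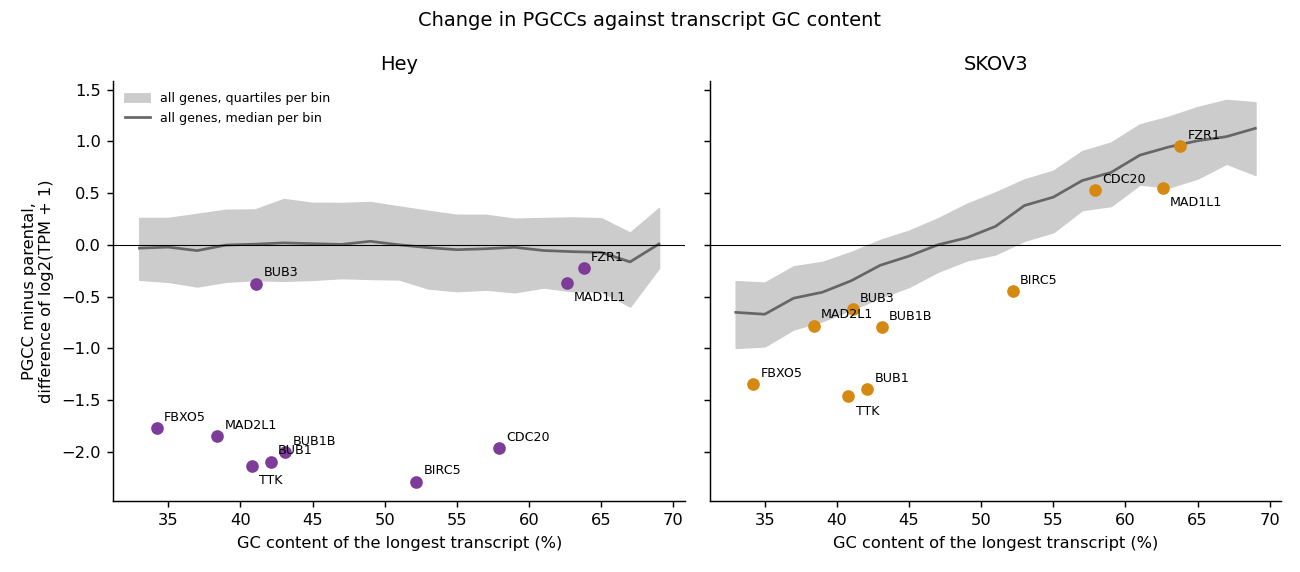
Change between parental cells and PGCCs (log2(TPM + 1)) against the GC content of the longest transcript in percent, for Hey and SKOV3. The grey line and band are the median and quartiles of all genes in bins of 2 percentage points and the points are the 10 genes, 7 of which lie far below the flat Hey band. In SKOV3 FZR1 and CDC20 sit inside the rising band, BUB3, MAD1L1 and MAD2L1 at its lower edge and the other 5 below it.

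The Hey daughter cells had levels near those of the parental library, and the SKOV3 daughter cells were mostly below theirs. These comparisons share the parental library with those of the PGCCs. In Hey 0 of the 10 genes were called against parental cells, where 3.73% of all genes were lower and 6.31% higher. The differences lay between -0.24 (MAD2L1) and 0.67 (CDC20). In SKOV3 only BUB1 was called, at -1.09, where 6.34% of all genes were lower and 15.1% higher. Of the 10 differences 9 were below 0, as were those of 5979 of all 14988 genes. The median of the 10 was -0.74, against 0.15 over all genes. With median-ratio scaling 5 genes were called in SKOV3 (BUB1, TTK, CDC20, FBXO5 and BIRC5), each of them lower, where 8.34% of all genes were lower and 11.3% higher. Without the GC and length trend 3 were called (BUB1, CDC20 and BIRC5), each lower, where 7.54% of all genes were lower and 11.1% higher.

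Compared directly with daughter cells, 7 of the 10 genes were lower by at least 2-fold in Hey PGCCs (BUB1, BUB1B, MAD2L1, TTK, CDC20, FBXO5 and BIRC5), and 9.95% of all genes were lower and 8.13% higher. CDC20 had the largest difference there, -2.64, a 6.39-fold lower level in PGCCs. In SKOV3 14.6% of all genes were lower and 9.25% higher in PGCCs than in daughter cells, and of the 10 genes 0 were lower and 2 higher, CDC20 (2.67-fold) and FZR1 (2.37-fold). Without the GC and length trend CDC20 was still past the threshold at 1.01 and FZR1 was not, at 0.60. Of all genes 10.4% were then lower and 7.53% higher. The uncalled SKOV3 differences of BUB1, MAD2L1 and FBXO5 went from -0.30, -0.51 and -0.53 to 0.077, 0.006 and 0.11 without the trend. That of MAD1L1 went from 0.45 to -0.092, while BUB1B and TTK stayed below 0 (-0.15 and -0.19). The comparisons with parental and with daughter cells share the PGCC library.

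As a test over both lines, limma was fitted to all 14988 genes with state and cell line as terms. In PGCCs compared with parental cells 0 of the 10 genes had an adjusted p under 0.05 by limma, each adjusted p being 1, and 5 had an unadjusted p under 0.05, where 1.57% of all genes were lower at that level. These were TTK, BUB1, FBXO5, BUB1B and MAD2L1. TTK had a mean change of -1.80 (standard error 0.484), an unadjusted p of 0.00689 by limma (adjusted p = 1), and was lower in both lines. That of CDC20 was -0.72 (standard error 0.828), where the lines had opposite signs. Compared with daughter cells, 5 genes had an unadjusted p under 0.05 by limma (3.08% of all genes were lower at that level) and 0 had an adjusted p under 0.05, the smallest being 0.908. The fit has 2 residual degrees of freedom, which come from the disagreement of the lines. With eBayes and a trend, limma moderated the error of each gene by the spread of all genes at similar levels. The unadjusted p-values by limma thus do not measure the agreement of the 2 lines alone. Without the Hey PGCC library the change against parental cells was -1.19 for TTK and 0.92 for CDC20, so the estimates depend on single libraries.

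Ratios of TPM within a library, which do not depend on the scaling between libraries, showed how the partners shifted against each other. For FBXO5, the APC/C inhibitor, over the activator FZR1, the Hey ratio was 4.61 (parental), 1.51 (PGCC) and 4.4 (daughter), and the SKOV3 ratio 4.99, 0.957 and 3.32. It was therefore lower in the PGCC library than in both other libraries of either line, by 3.05-fold against parental cells in Hey and 5.21-fold in SKOV3. The ratio of the activators, CDC20 to FZR1, was 15.1, 4.52 and 18.5 in Hey and 23.7, 17 and 15.2 in SKOV3, so that the Hey PGCC library stood apart and the SKOV3 one lay between its neighbours. The ratio of MAD1L1 to MAD2L1, whose proteins form a complex at the kinetochore, was 2.77, 9.55 and 4 in Hey and 0.410, 1.10 and 0.540 in SKOV3, highest in the PGCCs of both. CDC20 to MAD2L1, the target of the checkpoint against one of its inhibitors, was 9.56, 10.8 and 18.2 in Hey and 14.7, 37.7 and 9.71 in SKOV3, where the PGCC value was 2.57-fold the parental one. BUB3 to BUB1B was 4.04, 13.3 and 5.47 in Hey and 1.13, 1.28 and 0.872 in SKOV3. Most of these pairs differ in GC content. Without the GC and length trend FBXO5 and FZR1 differed by -0.61 and -0.084 in SKOV3 PGCCs, and by -1.77 and -0.033 in Hey PGCCs, against parental cells. MAD1L1 and MAD2L1 were at -0.36 and -0.32 in SKOV3 once it was removed, so that their shift against each other was no longer seen there, while in Hey the values were -0.25 and -1.79. The SKOV3 values of CDC20 and MAD2L1 without the trend were -0.055 and -0.32, so that most of the shift between these 2 genes was not seen either.

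**Figure D4:**
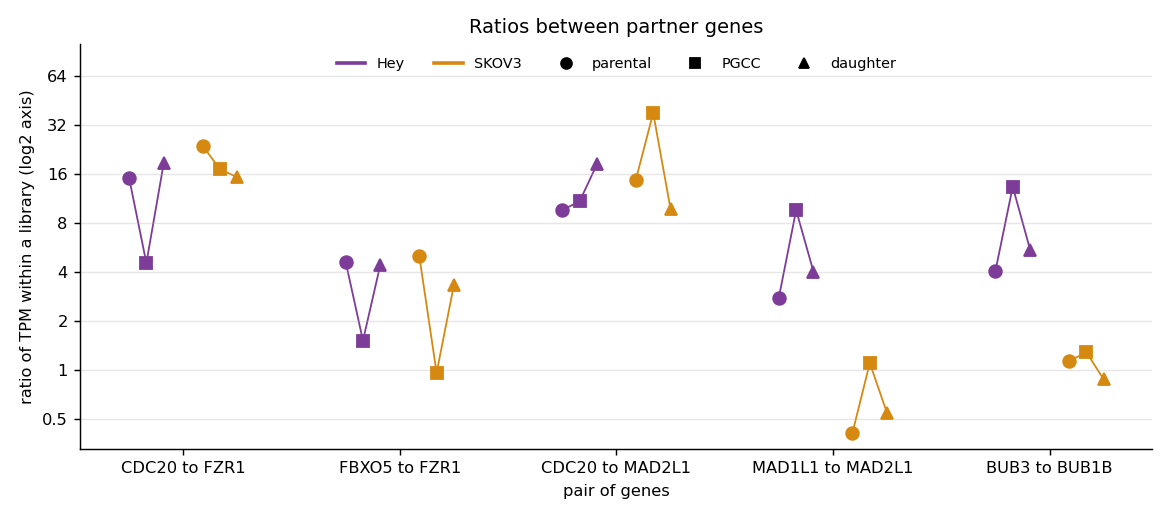
Ratios of TPM between partner genes in each library (log2 axis), with circles for parental cells, squares for PGCCs and triangles for daughter cells, joined within a line. FBXO5 to FZR1 is lowest and MAD1L1 to MAD2L1 highest in the PGCC library of both lines.

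The other genes of the pathway were described by lists. Of 16 genes of the kinetochore platform and of MAD2 turnover, 7 were lower by at least 2-fold in Hey PGCCs and 5 in SKOV3 PGCCs, with medians of -0.81 and -0.67. Without the GC and length trend the SKOV3 count was 1. By the mean over both lines the lowest was SPC25, a subunit of the NDC80 complex that binds microtubules (-2.21 in Hey and -1.95 in SKOV3). Next was KNL1, the docking site of BUB1 and BUBR1 (-2.17 and -1.31). The highest by that mean was MAD2L1BP, which encodes the p31comet protein that helps to take the checkpoint complex apart, at 0.73 and 0.42. It was followed by MAD2L2, a MAD2 relative, at -0.21 and 0.72. TRIP13, the ATPase that acts with p31comet, was at -2.26 and -0.36.

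All 10 genes of the passenger complex and of centromeric cohesion were lower in Hey PGCCs (median -1.70), and 2 were in SKOV3 (median -0.24), namely SGO2 (-1.79) and SGO1 (-1.24), which protect cohesin at centromeres. Without the GC and length trend 1 was called in SKOV3, while the median of the list was lower, at -0.51. By the mean over both lines the highest were CDCA5 (-1.71 in Hey and 0.15 in SKOV3), encoding sororin, and ESPL1 (-1.63 and 0.39), encoding separase. In Hey alone PTTG1 was higher, at -1.09, and so was RAD21, at -1.11. The 19 genes whose proteins are APC/C substrates were lower by at least 2-fold without exception in Hey PGCCs (median -2.00), and 7 of them were in SKOV3 (median -0.86). CCNA2, the cyclin A2 gene, had the lowest mean (-2.58 and -1.39), followed by ANLN, the anillin gene (-2.52 and -1.40). SKP2 (-1.71 and 0.026) and the thymidine kinase gene TK1 (-2.04 and 0.53) had the highest. Without the GC and length trend 19 substrate genes were lower in Hey and 3 in SKOV3.

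Of 14 genes for subunits of the APC/C itself, 0 were called in Hey PGCCs, with a median of -0.44 and a range from -0.69 to 0.43. In SKOV3 1 was lower, ANAPC13 (-1.03), and 1 higher, the cullin-like ANAPC2 (1.12), and neither was called without the trend. The lowest means were those of CDC27 (-0.61 and -0.67) and ANAPC4 (-0.44 and -0.70), and ANAPC11, the RING subunit, was at -0.69 and 0.88. Among the ubiquitin-conjugating enzymes that work with the APC/C, UBE2C was at -2.20 in Hey and -0.81 in SKOV3, and UBE2S at -0.65 and 0.67. UBE2C was called in Hey, and in SKOV3 the third enzyme, UBE2D1, was called at -1.08, a call that was lost without the trend.

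Of 16 transcription factors and complex members that control such genes, 7 were lower in Hey PGCCs and 2 in SKOV3 PGCCs (E2F8 at -1.06 and LIN9 at -1.02), where LIN37 was higher (1.10). E2F8 and LIN9 were also called in Hey, at -1.12 and -1.13, and E2F4, a factor of repressor complexes, was at -0.73 and 0.84. Without the trend 0 of the 16 were called in SKOV3. Of the 4 proliferation markers 3 were lower in Hey and 2 in SKOV3, with TOP2A, which encodes topoisomerase II alpha, at -2.59 and -1.77 and MCM2 at -1.87 and 0.53. Without the trend 1 of the 4 was lower in SKOV3. In bulk RNA, fewer cells that pass through mitosis and less mRNA per cell cannot be told apart. The other IAP genes did not resemble BIRC5 in Hey: among the 5 that passed the TPM limit, BIRC3 was higher in PGCCs (1.92) and 0 were lower. In SKOV3 PGCCs BIRC3 was at -0.81, and in SKOV3 daughter cells it was 2.64 above the parental value. Among these IAP genes NAIP had the lowest mean over both lines, at -0.027 in Hey PGCCs and -0.89 in SKOV3 PGCCs. In Hey it was near the TPM limit, at 1.26 TPM in parental cells and 1.22 TPM in PGCCs, and BIRC6 was lower there, at -0.28.

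**Figure D5:**
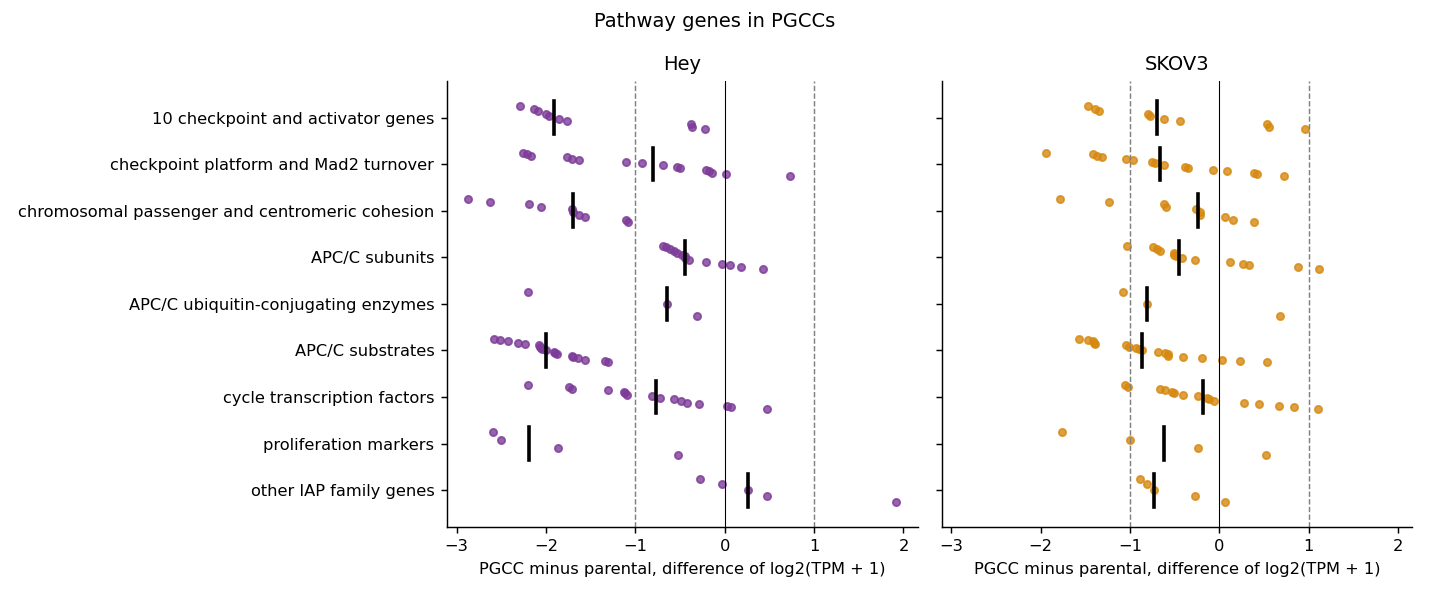
Change between parental cells and PGCCs (log2(TPM + 1)) of each gene of the pathway lists that passed the TPM limit, for Hey and SKOV3, with a black bar at the list median and dashed lines at the 2-fold threshold. In Hey the 19 APC/C substrate genes lie below -1 and the 14 APC/C subunits within the dashed lines.

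Across the 4 changes against parental cells, the genes outside the 10 most like BUB1B were HJURP, PRR11, ARHGAP11A, CCNB2 and WDR76, with root mean square distances between 0.143 and 0.165. HJURP, the chaperone of the centromeric histone CENP-A, was at -1.87 in Hey PGCCs and -0.65 in SKOV3 PGCCs, and CCNB2, the cyclin B2 gene, at -2.23 and -0.61. The genes most like FZR1 were ACOT7, ALG1, SF3B5, UQCRC1 and UBXN1, at distances between 0.039 and 0.09. ACOT7, which encodes an acyl-CoA thioesterase, was at -0.27 and 1.01, against -0.22 and 0.96 for FZR1. The profile of FZR1 thus had closer neighbours than that of BUB1B, and MAD1L1 was the nearest to it of the 10 genes (0.273). These distances were taken with the GC and length trend left in, which in SKOV3 PGCCs was 1.04 at FZR1. BUB1B lay at percentile 0.8 of all genes tested in Hey PGCCs against parental cells and FZR1 at 32.8, so the 2 sets of distances are not alike in density.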

How the data were processed

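RNA from 6 libraries, 1 for each of 3 states in 2 cell lines, was analysed. Per the labels and the methods of the study, reads passed fastp and were quantified with salmon (version 0.14.1 and hg38 per the submitters' processing notes), and the authors deposited TPM values, 1 per gene symbol and library. How transcripts were joined into symbols and the bias options are not given in the sources used here. TPM are relative to each library, so a level per cell cannot be read from them, and without counts no counting error or depth per gene can be given.

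Differences of log2(TPM + 1) were computed within each line and called at 1 (2-fold), with the genes that reach a mean TPM of 1 as background. With 1 library per condition no test was possible within a line. limma 3.58.1 (R 4.3.3), with state and cell line as terms, an eBayes trend and Benjamini-Hochberg adjustment over 14988 genes, was fitted to all 6 libraries. GC content and length are those of the longest GENCODE 44 transcript of a symbol (GRCh38), and their trend was removed by lowess (fraction 0.3, 2 passes). Promoter sequences come from RefSeq. Other steps used Python 3.11.15, numpy 2.4.6, pandas 2.3.3, scipy 1.17.1, statsmodels 0.14.6 and matplotlib 3.10.9, and the steps were tested on simulated data.

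All 10 genes are reported, and from each pathway list the genes with the lowest and highest mean change in PGCCs (2 of each for lists of 10 or more), beside the 5 genes nearest to BUB1B and to FZR1. AURKB, INCENP, CDCA8, TRIP13, ANAPC13 and UBE2D1 fall outside this rule and were named after their values were seen. The genes, the lists and the alternatives were chosen with earlier results of these data known, and the GC and length trend in the limma fit was added after seeing the data.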

Additional observations from a re-analysis of the deposited data

Results flagged for a closer look

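The 2 lines moved in opposite ways, by at least 1 on the log2(TPM + 1) scale between them, for 6 of the 10 genes in at least 1 comparison. The share of all genes that meet this rule was not computed. Of 14988 genes, 3347 were below 0 and 3773 above 0 in both lines in PGCCs against parental cells, so opposite signs were common. With 1 library per condition the differences of these 6 genes between the lines (Hey minus SKOV3) were not tested. In PGCCs compared with parental cells they were -2.50 for CDC20 (-1.96 in Hey and 0.53 in SKOV3) and -1.18 for FZR1 (-0.22 and 0.96). With the GC and length trend removed they were -1.91 and 0.051, so that the difference of FZR1 was gone and that of CDC20 was not. In daughter cells compared with parental cells they were 1.12 for TTK, 1.55 for CDC20, 1.13 for FBXO5 and 1.14 for BIRC5, each above 0 in Hey and below it in SKOV3, and between 1.09 and 1.61 without the trend. In PGCCs compared with daughter cells they were -1.09 for MAD1L1, -4.05 for CDC20, -1.76 for FZR1 and -2.99 for BIRC5, and -0.36, -3.53, -0.94 and -2.79 without the trend. The largest, that of CDC20, combines a daughter library that is the highest of its line in Hey with one that is the lowest in SKOV3.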

How the results depend on the processing

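The 7 calls in Hey PGCCs against parental cells kept their number under each alternative that was run, at thresholds of 1.5-fold and 3-fold, with a pseudocount of 0.1, median-ratio scaling, quantile normalization, mitochondrial genes left out and the GC and length trend removed, and no called value of the 10 genes changed sign in any comparison. At a 1.5-fold threshold the number called became 7 in SKOV3 PGCCs against parental cells (3 at 2-fold) and 5 in both lines together (3). In daughter cells against parental cells it became 1 in Hey and 6 in SKOV3 (0 and 1). For PGCCs against daughter cells it became 1 in both lines (0). Of all genes at 1.5-fold, 10.7% were lower and 17.2% higher in Hey daughter cells, and 13.6% and 28.1% in SKOV3 daughter cells. In both lines 3.07% were lower and 3.3% higher in PGCCs against parental cells, and 4.7% and 3.18% against daughter cells. At a 3-fold threshold the count was 0 in each of the 3 SKOV3 comparisons and in both lines together for PGCCs against parental cells. In those SKOV3 comparisons between 1.01% and 6.22% of all genes were lower and between 2.01% and 6.89% higher. In both lines together 0.127% were lower and 0.16% higher. Median-ratio scaling gave 5 calls in SKOV3 daughter cells against parental cells, and removal of the GC and length trend gave 3 there, 1 in SKOV3 PGCCs against daughter cells (2) and 2 in PGCCs against parental cells, in SKOV3 and in both lines together (3 each). Median-ratio scaling shifted the median of all genes in SKOV3 daughter cells against parental cells from 0.15 to -0.015, and leaving out mitochondrial genes shifted that in Hey PGCCs from 0 to 0.11. By limma 0 of the 10 genes had an adjusted p under 0.05 in any comparison or setting with all 6 libraries, including without the cell line term. At an unadjusted p under 0.05 by limma there were 5 genes in PGCCs against parental cells. There were 3 with the GC and length trend removed and 3 without the cell line term. In PGCCs against daughter cells there were 5, and 2 with median-ratio scaling or no eBayes trend. There were 3 with all genes above 0 TPM, and 1 without the GC and length trend or the cell line term. A fit that lacks a library rests that arm on the other line and has 1 residual degree of freedom. Only changes are given for such fits, and they depend on single libraries. In PGCCs against parental cells that of TTK was -1.19 without the Hey PGCC library and -2.41 without the SKOV3 PGCC library. That of CDC20 was 0.92 and -2.35 in these 2 fits. In PGCCs against parental cells 235 of 14988 genes were lower at an unadjusted p under 0.05 by limma. There were 173 of 13468 with the trend removed and 63 of 14988 without the cell line term. In PGCCs against daughter cells these numbers were 461, 355 and 88. There, 337 of 14988 genes were lower with median-ratio scaling and 403 without an eBayes trend. With all genes above 0 TPM it was 588 of 31474. With the limit raised to 5 TPM, the background of genes lower in PGCCs against parental cells was 6.36% (Hey) and 4.94% (SKOV3). No paired analysis was possible because each condition has 1 library, other than by cell line, which is a term of the limma fit (5 genes with it and 3 without it in PGCCs against parental cells, as above). Without counts, depth limits are unknown.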

Other observations

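For 8 of the 10 genes, all but BUB3 and MAD1L1, the lines differed more among PGCCs than among parental or daughter cells. The difference SKOV3 minus Hey on the log2(TPM + 1) scale was 1.92 for BUB1B, 1.47 for BIRC5 and 1.37 for CDC20 in parental cells, 3.12, 3.32 and 3.87 in PGCCs, and 1.82, 0.33 and -0.18 in daughter cells. TTK, the apical checkpoint kinase, was at 0.68, 1.34 and -0.44, and FBXO5 at 0.83, 1.26 and -0.30. MAD1L1 was lower in SKOV3 in each state (-1.88, -0.96 and -2.05). BUB3 was close to 0 in parental cells (0.094) and PGCCs (-0.15) and at -0.80 in daughter cells. These values compare 1 library of each line with the GC trend left in, and were not tested. The share of all genes for which the lines differed most among PGCCs was not computed. By their titles the PGCC libraries are from day 3 in Hey and day 7 in SKOV3.

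CDC20 was the most abundant of the 10 genes in every SKOV3 library and BUB3 in every Hey library. FZR1 or MAD2L1 was last in every Hey library, and MAD1L1 or MAD2L1 in every SKOV3 library.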
